A study of Bos taurus with 4 samples.

Results

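The genes of the cytosolic ribosomal proteins were examined in 4 bovine RNA libraries, 1 each from muscle, from small intestine, and from intestinal organoids of passage 5 (P5 organoids) and passage 10 (P10 organoids). The members were chosen by symbol alone: RPL or RPS with a number and at most a short suffix, RPLP0 to RPLP2 and RPSA. This rule took 82 of the 29792 rows, 50 of the large subunit and 32 of the small subunit, each with its own symbol. All 82 symbols matched protein-coding genes of RefSeq (assembly ARS-UCD2.0), which served for names only. The rule did not take, among others, FAU, whose ribosomal protein is made as a fusion with a ubiquitin-like protein, RPL36AL or the ribosome-bound scaffold RACK1.

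All samples came from Hanwoo cattle, a Korean breed, over 24 months old. The intestine and muscle libraries were made from tissue, and the organoids were grown from jejunal crypts in Matrigel with IntestiCult medium. How many animals were used, which muscle was sampled and whether the organoids came from the same animals as the tissues is not given in the sources used here. With 1 library per condition, effects of passage and of the culture cannot be told apart, nor can those of tissue and animal, and no test or p-value is given. The deposited values are read counts from QuantSeq, which reads each polyadenylated transcript at its 3′ end. Reads thus come from the end rather than the whole length of a transcript, and levels of different genes are compared without division by length.

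A ribosome has a large subunit, which joins amino acids, and a small subunit, which reads the mRNA. Most ribosomal proteins, though not all of those of the stalk, are present in a single copy. The mRNAs of these proteins begin with a run of pyrimidines (the terminal oligopyrimidine motif), through which growth signals set their translation together. Some ribosomal proteins have a paralogue that is used in particular tissues, and RPL3L, a form of striated muscle, is the best known.

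The libraries held between 12917720 and 17776273 reads. The row of the 18S ribosomal RNA, RN18S1, took 23.6% of the muscle reads, 4.81% of those of P5 organoids, 4.08% of intestine and 0.264% of P10 organoids. Shares of the set and some of its medians and counts are therefore also given with this row left out. Levels of single genes, in counts per 1000000 reads (CPM), keep this row in the total, which lowers them most in muscle. The order of muscle and the other libraries for single genes was not checked without it. All 12 skeletal muscle markers were counted in muscle (608610 reads), and they had between 36 and 61 reads in each of the other libraries. In muscle the 10 markers of intestinal epithelium had 669 reads, with VIL1, KRT18 and CDX2 at 0. Markers of other cell types were counted in intestine beside those of epithelium (10608 CPM). Its 10 leukocyte markers summed to 5304 CPM, its 6 smooth muscle markers to 2093 CPM and its 8 markers of stroma and endothelium to 966 CPM. The leukocyte markers summed to 4.41 CPM in P5 and 9.08 CPM in P10 organoids, where CD52, CD3D, MS4A1 and CD79B were at 0 in both. The smooth muscle markers summed to 15.2 and 15.7 CPM, with ACTG2 at 0 in both, and those of stroma and endothelium to 4.12 and 2.59 CPM, with COL3A1, LUM and DCN at 0 in both. In bulk RNA, fewer cells of a type and less RNA per cell cannot be told apart.

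Ribosomal protein genes took their largest share of the reads in P10 organoids. The 82 genes had 1746415 reads there, or 9.85% of the library (95% Wilson interval 9.84 to 9.86). In intestine they had 1149162 reads, or 6.46% (6.45 to 6.48), and in P5 organoids 736943 reads, or 5.42% (5.41 to 5.43). The share was lowest in muscle, with 560504 reads, or 4.34% (4.33 to 4.35). These intervals do not overlap, but each comes from 1 library and covers counting error only. Copies made by PCR are not independent molecules, so the intervals may be too narrow even for that. The share in P10 organoids was 1.82 times that in P5 organoids and 1.52 times that in intestine, and the share in P5 organoids was 0.838 times that in intestine.

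With RN18S1 left out of the totals, the share was 9.88% in P10 organoids, 6.74% in intestine, 5.69% for P5 organoids and 5.68% for muscle. P5 organoids and muscle were thus alike without this row, and with the mitochondrially encoded genes left out as well muscle stood higher, at 7.38% against 6.60%. With RN18S1 in the totals, both subunits followed the same order of libraries. Large subunit genes took 5.56% of the reads in P10 organoids, 3.53% of those in intestine, 2.94% of those in P5 organoids and 2.47% of those in muscle. Small subunit genes took 4.29%, 2.93%, 2.48% and 1.87%. Without RN18S1, large subunit genes stood higher in muscle than in P5 organoids (3.24% against 3.08%) and small subunit genes lower (2.45% against 2.61%). The ratio of large to small subunit reads was 1.18 in P5 organoids, 1.20 in intestine, 1.29 in P10 organoids and 1.32 in muscle.

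**Figure D1:**
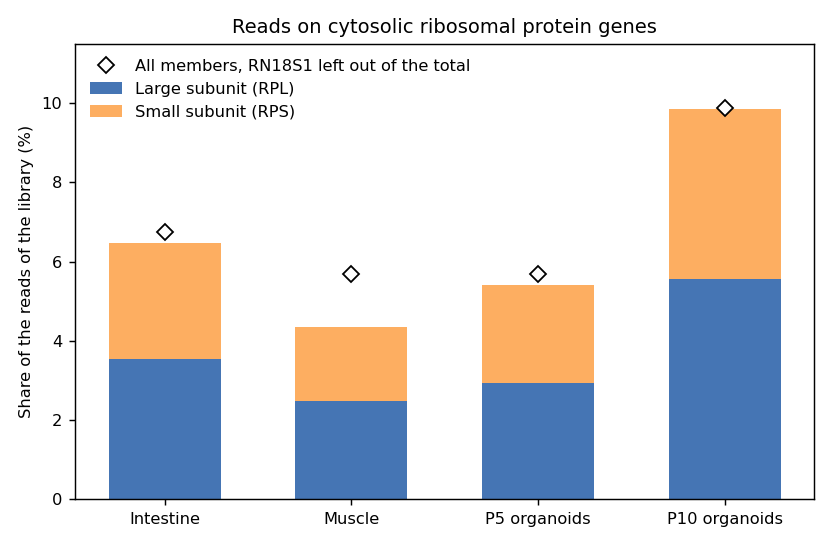
Bars show the share of each library's reads (%, vertical axis) on large and small subunit genes in the 4 libraries, and diamonds the share of all members with RN18S1 left out of the total. P10 organoids stood highest at 9.85%, and the diamonds of muscle (5.68%) and P5 organoids (5.69%) lay at the same height.

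Of the 82 members, 80 had at least 100 reads in every library and 74 had at least 1000. RPL10L, a retrogene best known from the testis, had no reads in any library, and RPL3L had reads in muscle alone. Among the members with at least 10 reads, the median level was 1017 CPM in P10 organoids, 678 CPM in intestine, 579.8 CPM in P5 organoids and 416 CPM in muscle. The lowest member stood between 8.98 CPM (RPL22L1 in muscle) and 41.7 CPM (RPL26L1 in P10 organoids), and the highest between 2269 CPM (RPLP0 in P5 organoids) and 5436 CPM (RPLP0 in P10 organoids). The SD of the log2 level over members lay between 1.24 in P5 organoids and 1.48 in muscle. Members are not replicates, so this SD describes how unevenly the genes were counted. Of the 100 rows with most reads, members made up 37 in P10 organoids, 25 in intestine, 22 for P5 organoids and 19 in muscle.

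The genes with the highest mean CPM over the 4 libraries were RPS12, RPLP0, RPL23, RPL13A and RPLP1. RPS12, a protein of the small subunit, was counted at 3970 CPM in P10 organoids, 3391 CPM in intestine, 2252 CPM in P5 organoids and 1737 CPM in muscle. RPL23, of the large subunit, was at 3221, 2269, 1814 and 949 CPM in the same order. RPL13A was at 2817, 2270, 1422 and 1739 CPM, so P5 organoids were lowest for this gene by CPM. These are levels per library total. With quantile normalisation RPL23 and RPLP0 were higher in P5 organoids than in intestine, by 0.13 and 0.30 on the log2 scale. RPL13A was then lowest in muscle, at 14.67 on that scale against 14.76 in P5 organoids.

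The proteins of the ribosomal stalk, which calls translation factors to the large subunit, did not keep 1 ratio between libraries. RPLP0, the base of the stalk, was at 5436 CPM in P10 organoids, 2430 CPM in intestine, 2269 CPM in P5 organoids and 1156 CPM in muscle. RPLP1 had its highest level in muscle, at 2757 CPM, followed by intestine at 1671 CPM, P10 organoids at 1579 CPM and P5 organoids at 1031 CPM. It was the most counted member in muscle and the 23rd in P10 organoids. RPLP2, which pairs with RPLP1, was at 1934 CPM in P10 organoids, 966.8 CPM in P5 organoids, 729 CPM in muscle and 647 CPM in intestine. RPSA, a small subunit protein also known as the laminin receptor, was at 2879 CPM in P10 organoids and 432 CPM in muscle. P5 organoids, at 1258 CPM, were above intestine, at 1194 CPM, but below it with TMM (-0.10).

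**Figure D2:**
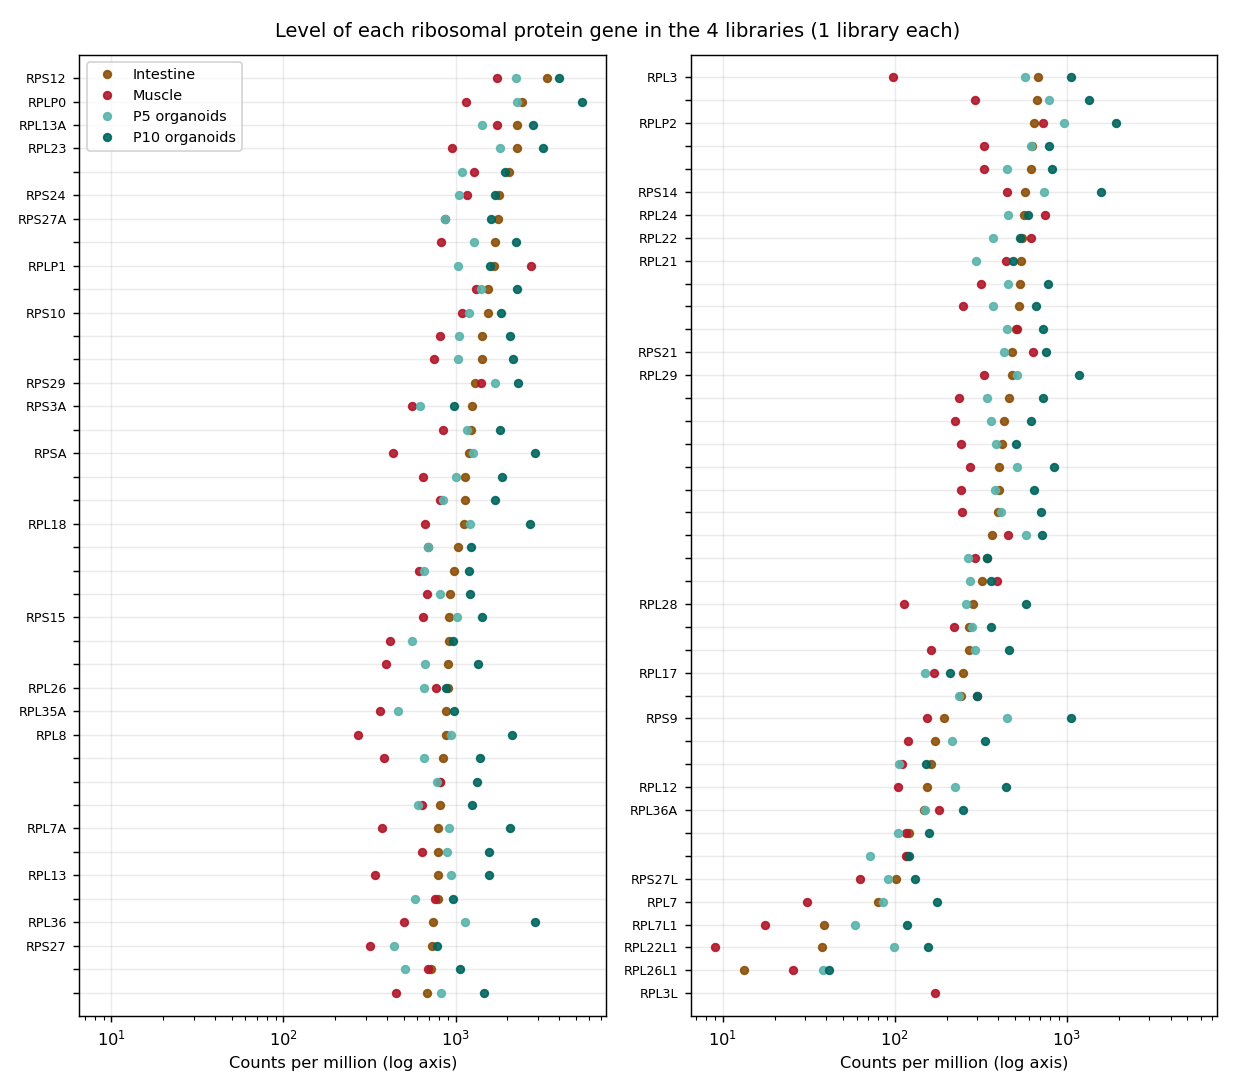
Each point is the level of a gene in 1 library (CPM, log axis), with all members that had reads in order of their level in intestine from the top of the left panel to the bottom of the right one, and names at those given in the text. P10 organoids lay furthest right for 66 of the 80 members counted in every library and muscle furthest left for 53, while RPL3L had a point in muscle only. By CPM, only 3999 of all 17559 rows were higher in muscle than in intestine, so a low place of muscle is not particular to these genes. In P10 organoids 9483 of all 17803 rows were higher than in intestine. The order of the 4 libraries over all rows is not given here.

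Between the passages, almost every ribosomal protein gene was higher in P10 than in P5 organoids, by a similar and moderate factor. Differences are given on the log2 scale of quantile-normalised values with 1 added, the normalisation named in the study's methods, and counting standard errors (SE) come from the reads of the gene. Of the 80 members with at least 10 reads in either library, 79 were higher in P10 organoids, against 8476 of all 16131 such rows. The median difference of the members was 0.65 (quartiles 0.44 and 0.80), and that of all rows 0.06. Among rows with at least 1000 reads in either library the median was 0.19, and 0.24 with library totals and 0.17 with TMM. With library totals instead, all 80 were higher, with a median of 0.78 against 0.12 for all rows, and with edgeR's TMM all 80 were higher, with a median of 0.71 against 0.05.

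How many members passed a 2-fold difference depended on the scaling. With quantile normalisation at least 2-fold higher were 10 of the 80, or 12.5%, against 16.1% of all rows with at least 10 reads and 10.6% of those with at least 1000. With library totals 21 were, or 26.2%, against 17.9% of all rows. None was at least 2-fold lower, against 16.6% and 11.2% of rows. On both scales most members were higher by less than 2-fold.

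The largest differences between passages were those of RPLP0, RPS9, RPL28, RPL36 and RPL7. RPLP0 differed by 1.59 (SE 0.01), and by 1.26 with library totals. RPS9, a small subunit protein that helps to keep decoding accurate, was at 1052 CPM in P10 and 447 CPM in P5 organoids, a difference of 1.17 (SE 0.02). RPL36 was at 2895 against 1141 CPM (1.12, SE 0.01), RPL28 at 579.6 against 259 CPM (1.16, SE 0.03) and RPL7 at 176 against 85.7 CPM (1.07, SE 0.05). At the other end, RPS29 was the only member lower in P10 organoids with quantile normalisation, by -0.09 (SE 0.01), and it was higher with library totals, at 2294 against 1705 CPM. RPL26L1, RPS10 and RPS15 were among the next, with differences of 0.04, 0.10 and 0.12. The cell division markers moved in the same direction as the set, with 10 of 10 counted in both, a sum of 776 CPM in P5 and 1486 CPM in P10 organoids. Between intestine (177 CPM) and P5 organoids these markers moved opposite to the set, which was lower in P5 organoids. Their part in the difference was not tested. RN18S1 and the mitochondrially encoded genes, which took 13.0% of the reads in P5 and 7.09% in P10 organoids, moved the opposite way.

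The composition of the set was similar in both passages. As a share of all ribosomal protein reads, a measure that no scaling between libraries alters, 74 of 80 members lay within 0.5 on the log2 scale, and the SD over members was 0.26. No member's share differed by 2-fold. This measure was not taken over all rows. The highest log2 ratio of shares was 0.48 for RPL36, and the lowest was -0.73 for RPL26L1.

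Against intestine, most members were lower in P5 organoids. Of 80 members, 54 were lower and 25 higher, where 8215 of all 17783 rows with at least 10 reads were lower and 9536 higher. The median difference of the members was -0.28 (quartiles -0.56 and 0.14) against 0.11 for all rows. Among rows with at least 1000 reads in either library it was -0.03. The median of the members was -0.19 with library totals and -0.37 with TMM, where rows with at least 1000 reads had 0.19 and 0.02. With quantile normalisation 2 members were at least 2-fold higher and 5 at least 2-fold lower, or 2.50% and 6.25%. The shares among all rows were 24.9% higher and 22.8% lower, and among rows with at least 1000 reads 16.7% and 17.3%. With library totals 3 were higher and 2 lower, against 21.2% and 24.6% of all rows. On both scales the shares of the members lay below those of all rows, and the balance of higher and lower members past 2-fold depended on the scaling.

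The genes at least 2-fold lower in P5 organoids were RPS3A, RPL35A, RPL21, RPS27A and RPL17. RPS3A, of the small subunit, was at 621 CPM in P5 organoids against 1243 CPM in intestine (difference -1.12, SE 0.02). RPS27A, a fusion of ubiquitin with a small subunit protein, was at 867 against 1762 CPM (-1.01, SE 0.02). RPL35A was at 459.9 against 879 CPM (-1.12, SE 0.02), RPL21 at 298 against 541 CPM (-1.06, SE 0.03) and RPL17 at 150.1 against 248 CPM (-1.002, SE 0.04). The largest positive differences were those of the paralogues RPL26L1 (1.43, SE 0.11) and RPL22L1 (1.19, SE 0.07). RPS9 followed with 0.96 (SE 0.03), RPL36 with 0.78 (SE 0.02) and RPS29 with 0.72 (SE 0.01).

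In P10 organoids most members were higher than in intestine. Of 80 members, 60 were higher and 20 lower, where 9386 of all 17803 rows were higher and 8385 lower. The median difference of the members was 0.31 (quartiles 0.00 and 0.72) against 0.11 for all rows. Among rows with at least 1000 reads in either library, a level that 74 members reached in every library, it was 0.23. With library totals the median of the members was 0.56, against 0.49 for rows with at least 1000 reads. With TMM it was 0.31 against 0.24. Beside rows of such a level the members thus stood only slightly higher. At least 2-fold higher were 14 members, or 17.5%, and none was at least 2-fold lower. Among all rows 28% were higher and 26.1% lower by this measure, and among rows with at least 1000 reads 24.1% and 19.4%. With library totals 19 members were at least 2-fold higher, or 23.8%, against 26.5% of all rows.

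The 14 genes were RPS9, RPL36, RPLP0, RPL22L1, RPL26L1, RPL7L1, RPLP2, RPL12, RPSA, RPL7A, RPL8, RPL29, RPL18 and RPS14. RPS9 was at 1052 CPM in P10 organoids and 194 CPM in intestine, a difference of 2.13 (SE 0.03). RPL36 was at 2895 against 740 CPM (1.91, SE 0.01), and RPL12, which sits at the foot of the stalk, at 440 against 155 CPM (1.33, SE 0.03). RPL8, of the large subunit core, was at 2138 against 875 CPM, a difference of 1.08. RPLP0 differed by 1.88 with quantile normalisation, by 1.16 with library totals and by 0.92 with TMM. The most negative differences belonged to RPS3A (-0.63, SE 0.02), RPL17 (-0.51, SE 0.03), RPS27A (-0.45, SE 0.01), RPLP1 (-0.41, SE 0.01) and RPS24 (-0.37, SE 0.01). These 2 contrasts share the intestine library and are not independent of each other. As given above, leukocyte, smooth muscle and stromal markers were counted in intestine and were close to absent in organoids. Cell division markers summed to 177 CPM in intestine, below both organoid libraries (776 CPM in P5 and 1486 CPM in P10). The set was lower than intestine in P5 and higher in P10 organoids. The part of all these markers in the differences was not tested.

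As a share of ribosomal protein reads, the composition differed more between organoids and intestine than between the passages. The SD over 80 members was 0.50 for P5 and 0.56 for P10 organoids against intestine. By this measure 3 members (RPL26L1, RPL22L1 and RPS9) stood at least 2-fold higher in P5 organoids and 5 in P10 organoids (these 3, RPL36 and RPL7L1), and none was 2-fold lower. RPS9 differed by 1.46 in P5 and 1.83 in P10 organoids, RPL22L1 by 1.65 and 1.44, and RPL26L1 by 1.77 and 1.04.

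**Figure D3:**
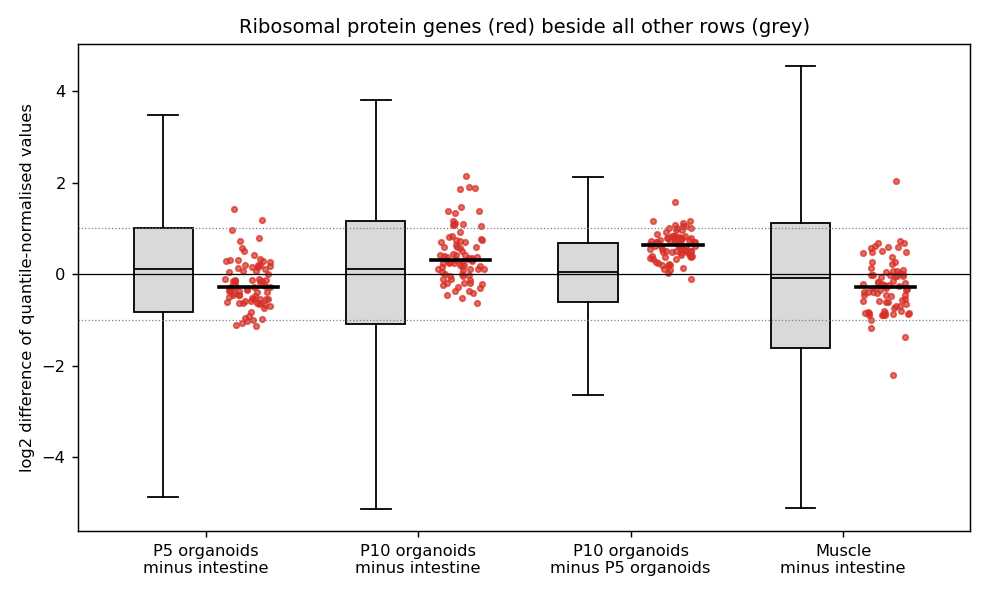
Red points are the log2 differences of quantile-normalised values (vertical axis) of the members in each contrast, with RPL3L left out and a black line at their median, and grey boxes show the quartiles, median and 5th to 95th percentiles of all other rows with at least 10 reads in either library. For P10 minus P5 organoids the red points lie above 0 except for RPS29 at -0.09, and their median is 0.65.

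The direction of the set between muscle and intestine depended on the scaling. With quantile normalisation 57 of 81 members were lower in muscle and 23 higher, where 9109 of all 17559 rows were lower and 8420 higher. The median of the members was -0.26 against -0.08 for all rows. With library totals the median was -0.59, but that of all rows was -1.31, and with TMM the median was 0.43 against -0.31. Relative to all rows the members were thus 0.18 lower with quantile normalisation (-0.18), and 0.72 and 0.74 higher with library totals and TMM. Rows with at least 1000 reads in either library had medians of -0.53 with quantile normalisation, -1.27 with library totals and -0.26 with TMM. Beside these rows the members stood higher on each of these scales, so their place below all rows depends on the rows compared. RPL3L was the largest difference of the set on any of these scales, and its exact size does not alter the medians.

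At least 2-fold higher in muscle were 2 members, RPL3L and RPL26L1, and at least 2-fold lower were 3, RPL3, RPL8 and RPSA. These are 2.47% and 3.70% of the 81, against 27% and 32.3% of all rows and 17.1% and 38.1% of rows with at least 1000 reads. With library totals the counts were 1 and 21, against 11.4% and 56.8% of all rows, and with TMM 14 and 2, against 22.9% and 37%. RPL8 was at 270.5 CPM in muscle and 875 CPM in intestine (-1.37, SE 0.03), and RPSA at 432 against 1194 CPM (-1.18, SE 0.02). RPL35A (-0.998, SE 0.02) and RPL13 (-0.89, SE 0.03) came next. With TMM the differences of RPL8 and RPSA were -0.68 and -0.45. On the positive side, RPS21 (0.73, SE 0.02), RPL36A (0.69, SE 0.04) and RPL24 (0.67, SE 0.02) followed RPL26L1.

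Within the ribosomal protein reads, where scaling has no part, RPL3, RPL22L1 and RPL8 were furthest below intestine in muscle. Their shares differed from those in intestine by -2.21, -1.49 and -1.12 on the log2 scale, and no other member was 2-fold lower. RPL26L1 (1.51) and RPLP1 (1.30) were the members at least 2-fold higher by this measure, apart from RPL3L, which has no ratio to a count of 0. The SD over members was 0.61, and this measure was not taken over all rows.

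RPL3 lies next to the site where peptide bonds form, and RPL3L takes its place in ribosomes of skeletal and heart muscle. RPL3L had 2218 reads in muscle and none in intestine, P5 organoids or P10 organoids. RPL3 had 1265 reads in muscle, 18827 in P10 organoids, 12024 in intestine and 7719 in P5 organoids. The paralogue thus made up 63.7% of the reads of the pair in muscle (95% Wilson interval 62.1 to 65.3). Its count of 0 allows at most 0.02495% in intestine, 0.0389% in P5 organoids and 0.0159% in P10 organoids, taking 3 reads as the limit. RPL3L was at 172 CPM in muscle, at least 1017-fold higher than in intestine, at least 778-fold higher than in P5 organoids and at least 1015-fold higher than in P10 organoids, each against a floor of 3 reads per library. RPL3 was at 97.9 CPM in muscle and 676 CPM in intestine, a difference of -2.19 (SE 0.04) with quantile normalisation, -2.79 with library totals and -1.77 with TMM. RPL3 held 0.226% of the ribosomal protein reads in muscle and between 1.05% and 1.08% in the other libraries. Both genes together held 0.621% in muscle.

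The elongation factor EEF1A, which brings aminoacyl-tRNA to the ribosome, has a form of muscle and neurons, EEF1A2, and was compared in the same way. EEF1A2 had 12536 reads in muscle, 35 in intestine, none in P5 organoids and 2 in P10 organoids. It made up 86.3% of the reads of EEF1A1 and EEF1A2 in muscle (85.8 to 86.9) and 0.215% in intestine (0.155 to 0.299). EEF1A1 was at 154 CPM in muscle, 912 CPM in intestine, 804 CPM in P10 organoids and 498.5 CPM in P5 organoids.

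RPL22L1, a paralogue of the large subunit protein RPL22, had its highest part in organoids. It had 2761 reads in P10 organoids, 1345 in P5 organoids, 670 in intestine and 116 in muscle. RPL22 had 9504, 5056, 9787 and 7956 reads in the same libraries. RPL22L1 made up 22.5% of the reads of the pair in P10 organoids (21.8 to 23.3), 21.0% in P5 organoids (20.0 to 22.0), 6.41% in intestine (5.95 to 6.89) and 1.44% in muscle (1.20 to 1.72). With quantile-normalised values its part in muscle was 2.54%, still the lowest. The intervals of the organoids overlap, and both lie above those of the tissues. RPL22 itself was at 616 CPM in muscle, 551 CPM in intestine, 536 CPM in P10 organoids and 372 CPM in P5 organoids.

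RPL26L1, a close paralogue of RPL26, had the fewest reads in intestine among the members counted there. It had 237 reads there and 329 in muscle, against 519 in P5 and 739 in P10 organoids. Its part of the pair was 1.46% in intestine (1.29 to 1.66), 3.20% in muscle (2.88 to 3.56), 5.49% in P5 organoids (5.05 to 5.97) and 4.52% in P10 organoids (4.21 to 4.85). These intervals do not overlap, but with quantile-normalised values the part was 4.86% in muscle and 4.93% in P5 organoids, so the order of the libraries depends on the scale. With quantile normalisation RPL26L1 was 2.03 higher in muscle than in intestine (SE 0.12), and with library totals 0.93.

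As a ratio of the highest to the lowest part, the other pairs differed less between libraries. RPL7L1, known to act in ribosome assembly, made up 40.7% of its pair with RPL7 in P5 organoids (38.5 to 42.9), 40.1% in P10 organoids (38.8 to 41.4), 36.1% in muscle (32.5 to 40.0) and 32.6% in intestine (30.6 to 34.6). RPS27L, a paralogue of RPS27 and a known target of p53, made up 17.2% in P5 organoids (16.4 to 18.1), 16.4% in muscle (15.4 to 17.5), 14.4% in P10 organoids (13.9 to 14.9) and 12.2% in intestine (11.7 to 12.8). RPL36AL, an intronless copy of RPL36A, made up 73.5% in intestine (72.6 to 74.3), 70.4% in P5 organoids (69.3 to 71.4), 69.3% in P10 organoids (68.5 to 70.0) and 54.6% in muscle (53.3 to 56.0). RPL39L was not analysed here. Reads with several alignments were included in the counts, so reads that fit both genes of a pair, or processed copies elsewhere in the genome, were not separated. The 0 reads of RPL3L beside 18827 reads of RPL3 in P10 organoids show that none of the latter was counted to RPL3L there.

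**Figure D4:**
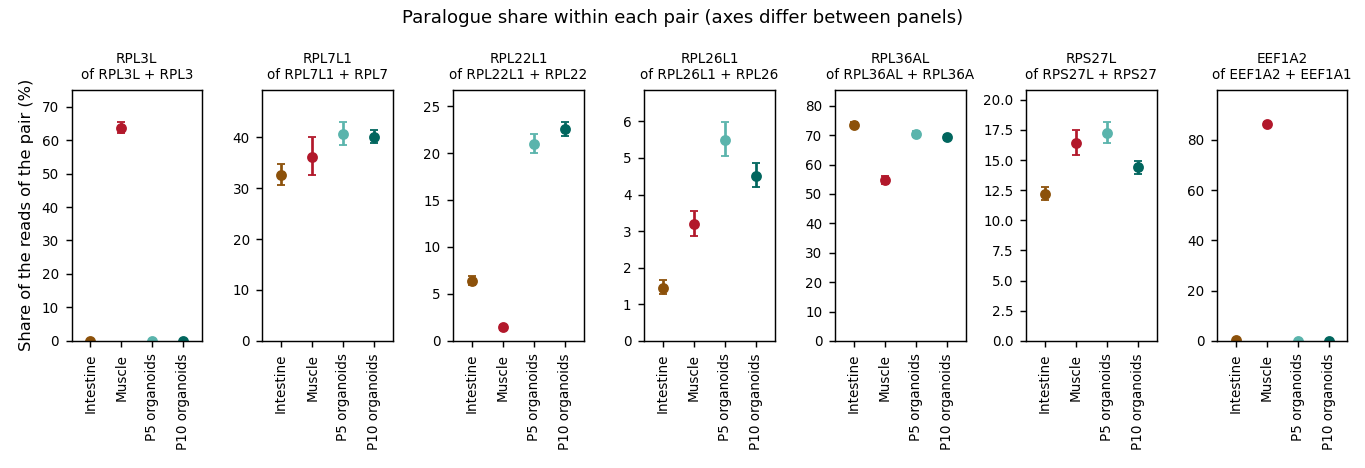
Points show the part of the paralogue in the reads of its pair (%, vertical axis, from 0, with different ranges) in the 4 libraries, with 95% Wilson intervals for counting error. RPL3L (63.7%) and EEF1A2 (86.3%) stood out in muscle, and RPL22L1 was above 20% in organoids only.

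The genes outside the rule that belong to the same machinery were counted for comparison. Of 22 other genes known for a terminal oligopyrimidine motif, 18 were higher in P10 than in P5 organoids and 4 lower, with a median of 0.56, where 8476 of all 16131 rows were higher. At least 2-fold higher were 5, or 22.7% against 16.1% of all rows, led by EEF1D (1.33), a subunit of the exchange factor of EEF1A. The smallest difference was that of PABPC1, a poly(A)-binding protein, at -0.99. Against intestine their medians were -0.34 in P5 and 0.20 in P10 organoids, beside -0.28 and 0.31 for the ribosomal protein genes. FAU was at 615 CPM in P10 organoids, 538 CPM in intestine, 379.9 CPM in muscle and 377 CPM in P5 organoids. RACK1 was at 1688 CPM in P10 organoids, 1151 CPM in intestine, 969 CPM in P5 organoids and 488 CPM in muscle, and EEF2, the factor that moves the ribosome along the mRNA, at 1069, 802, 732 and 342 CPM in the same order. TPT1, a growth-related protein, was at 3154 CPM in muscle, 2593 CPM in intestine, 1833 CPM in P10 organoids and 1353 CPM in P5 organoids, and between the passages it was lower in P10 organoids with quantile normalisation (-0.16).

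Most ribosome assembly genes were higher in organoids than in intestine, while in P5 organoids the share past 2-fold was close to that of all rows. Of 37 such genes, 28 were higher in P5 organoids than in intestine, with a median of 0.52, and 34 were higher in P10 organoids, with a median of 1.16. At least 2-fold higher were 9 in P5 organoids, or 24.3% against 24.9% of all rows, and 22 in P10 organoids, or 59.5% against 28%. None was 2-fold lower, against 22.8% and 26.1% of all rows. Of all rows, 9536 of 17783 were higher in P5 organoids and 9386 of 17803 in P10 organoids. The nucleolar protein PPAN had the largest difference in both (2.95 and 3.99) but rested on 19 reads in intestine, 71 in P5 and 223 in P10 organoids. RRN3, which starts transcription by RNA polymerase I, had the smallest (-0.67 and -0.57). Their share of the reads was 0.0888% in intestine, 0.132% in P5 organoids and 0.202% in P10 organoids. In P5 organoids the assembly genes were thus higher than in intestine at the median while the ribosomal protein genes were lower, a direction that held with library totals and with TMM. LYAR had the largest difference between the passages (1.22), with 47.3 CPM in P5 and 112 CPM in P10 organoids.

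The 78 genes of mitochondrial ribosomal proteins had the direction of the cytosolic ones in some contrasts and not in others. Their median was 0.33 in P5 organoids and 0.58 in P10 organoids against intestine, beside -0.28 and 0.31 for the cytosolic genes and 0.11 for all rows in both. Between the passages it was 0.13, beside 0.65 for the cytosolic genes and 0.06 for all rows. In muscle against intestine it was 1.02 with quantile normalisation and 1.002 with TMM, but -0.01 with library totals, where the median of all rows was -1.31. They took 0.434% of the reads in P10 organoids, 0.348% in P5 organoids, 0.275% in muscle and 0.2503% in intestine.

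**Figure D5:**
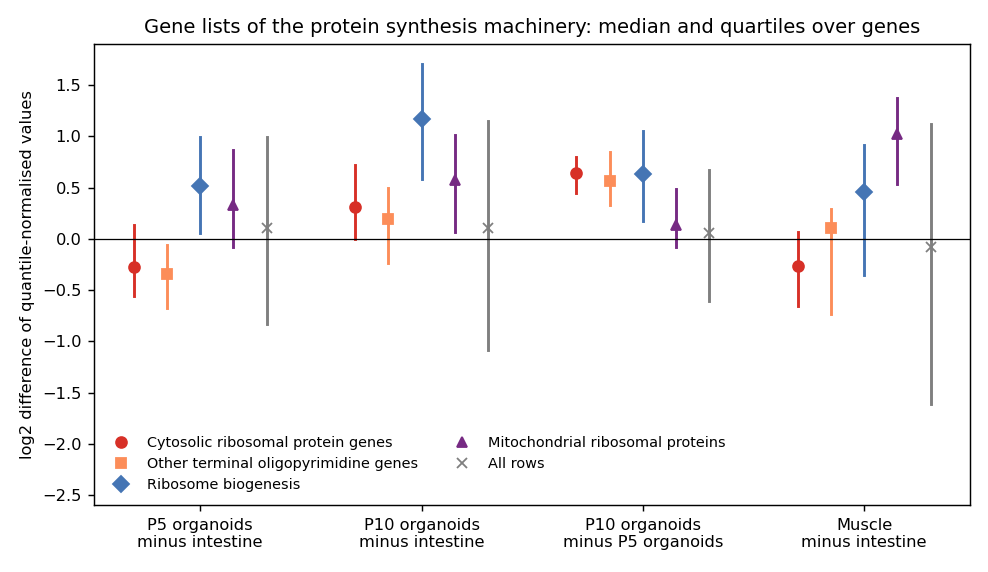
Symbols show the median and lines the quartiles over genes of the log2 difference of quantile-normalised values (vertical axis) for 4 gene lists and all rows with at least 10 reads in either library. The cytosolic ribosomal protein genes had medians of -0.28, 0.31, 0.65 and -0.26 from left to right, and ribosome assembly genes had the highest median of P10 organoids against intestine, at 1.16.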

How the data were processed

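Total RNA (500 ng per sample) of 4 samples was made into QuantSeq 3′ libraries. The authors aligned reads by Bowtie2, to a genome or transcript set whose build is not given in the sources used here, took counts with Bedtools from unique as well as multiple alignments, and deposited whole-number counts per gene, not normalised. The submitters' processing notes also name edgeR. Depth is the sum of the counts.

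The 22200 rows with a read were quantile-normalised over the 4 libraries (ties took the mean of their ranks), and values were analysed as log2(value + 1). This step was tested on simulated data and against limma. A row entered a contrast with at least 10 reads in either library and was counted as higher or lower from a 2-fold difference. SEs are those of the log2 ratio of 2 Poisson counts, and shares have 95% Wilson intervals, for counting error only. A count of 3 reads or fewer was taken as the floor. No test was run.

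The members, the lists and the rules were chosen with earlier results of these data known. Named are all paralogue pairs, the stalk proteins, RPSA, RN18S1, members without reads, the 5 members with the highest mean CPM, the 5 largest and 5 smallest differences per contrast with at least 50 reads, and from the other lists the extremes and translation genes. RPL12, RPL7A, RPL18, RPL29 and RPS14, the members past 2-fold outside this rule, were named after their values were seen. Alternatives were library totals with and without RN18S1, TMM, upper quartile and DESeq2-type size factors from edgeR, other pseudocounts and other filters. R 4.3.3 ran limma 3.58.1 and edgeR 4.0.16. Python 3.11.15 ran pandas 2.3.3, numpy 2.4.6, matplotlib 3.10.9 for plots and scipy 1.17.1. No sequence table was used here. Some items, and the alternative that rests on them, are not reported here.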

Additional observations from a re-analysis of the deposited data

Results flagged for a closer look

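The organoids of P5 and P10 lay on opposite sides of intestine, and a difference between the passages was not tested, since each has 1 library and both share the intestine library. The share of reads on ribosomal protein genes differed from intestine by -1.05 percentage points in P5 organoids and by 3.39 percentage points in P10 organoids. The median log2 difference of the members was -0.28 and 0.31. Among the members that the naming rule covers, 7 lay on opposite sides beyond their 95% counting intervals with quantile normalisation and had the same signs with library totals and TMM. By CPM, 38 of the 80 members had P5 organoids below and P10 organoids above intestine without overlap of intervals. The share of all rows is not given here, so neither count is read as a result about the members. RPL13A differed by -0.25 in P5 and 0.27 in P10 organoids. RPL28 differed by -0.33 and 0.83, RPL3 by -0.34 and 0.42, and RPS21 by -0.38 and 0.42. Of the genes with a paralogue, RPL10 differed by -0.40 and 0.39 and RPL39 by -0.30 and 0.10. The paralogue RPS27L differed by -0.40 and 0.11.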

How the results depend on the processing

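The share of reads kept P10 organoids highest and intestine next under every alternative run, while the order of muscle and P5 organoids changed. For intestine, muscle, P5 and P10 organoids, the share was 6.74%, 5.68%, 5.69% and 9.88% without RN18S1 in the total, 8.17%, 7.38%, 6.60% and 10.6% also without mitochondrially encoded genes, 6.51%, 5.22%, 5.76% and 9.15% of quantile-normalised values, and 6.22%, 4.22%, 5.19% and 9.31% without RPLP0. The median difference of P5 organoids and intestine was -0.19 with library totals, -0.37 with TMM, -0.34 with upper quartile, -0.36 with DESeq2-type size factors and -0.18 with library totals without RN18S1. The 5 members at least 2-fold lower became 2 with library totals, 1 without RN18S1 and 0 as shares of ribosomal protein reads, a measure chosen after seeing the data. For P10 organoids and intestine the median was 0.56 with library totals and 0.50 without RN18S1, and 14 members at least 2-fold higher became 5 as shares of ribosomal protein reads. Between the passages the median was 0.78 with library totals, 0.71 with TMM and with size factors, and 0.72 without RN18S1, and 10 members at least 2-fold higher became 21 with library totals and 0 as shares. For muscle and intestine the median reversed to 0.43 with TMM, 0.59 with upper quartile and 0.53 with size factors, and was -0.59 with library totals. The 2 members at least 2-fold higher became 1, 14, 18 and 18 with library totals, TMM, upper quartile and size factors, or 1 where all 4 libraries must have 10 reads, which drops RPL3L. The 3 members at least 2-fold lower became 21 with library totals, 1 with upper quartile and with size factors, and 5 without RN18S1. Within pairs, quantile-normalised values gave RPL22L1 2.54% and RPL26L1 4.86% in muscle and EEF1A2 0.126% in intestine. The SD over members was 1.29 in muscle and 1.39 in P5 organoids with quantile-normalised values. Other causes of these changes were not tested. Rows that resemble ribosomal protein genes could not be added, since the reference table describes none. No paired analysis was possible because each condition has 1 library. Depth limits none of the members above 100 reads, and RPL10L was not detectable at this depth.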

Other observations

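The reads on cytosolic ribosomal protein genes were 25.8 times those on the genes of mitochondrial ribosomal proteins in intestine, 22.7 times in P10 organoids, 15.8 times in muscle and 15.6 times in P5 organoids. The mitochondrially encoded genes took 17.6% of the muscle reads and 16.8% of those of intestine, beside 13.0% for P5 and 7.09% for P10 organoids, so the libraries stand in another order for these transcripts than for the cytosolic ribosomal protein genes.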
